A study of Rattus norvegicus with 6 samples.

Results

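The circadian clock genes, 10 in number, were followed in whole inner medulla of the rat kidney, where the collecting ducts end. They are Clock, the period genes Per1, Per2 and Per3, the cryptochromes Cry1 and Cry2, the nuclear receptors Nr1d1 and Nr1d2, the transcription factor Dbp and the deadenylase Noct. They were chosen by name from the genes measured on the arrays, 10 of 14168, through the probe set whose only gene symbol in the platform annotation is theirs; each of the 10 had 1 probe set. Total RNA of male Sprague-Dawley rats, all on a fixed food ration with free water and all carrying an osmotic minipump under the skin of the neck, was hybridised to 6 whole-transcript gene arrays, 2 in each of 3 groups. The vehicle group was infused with saline at 1 µl/h for 5 d. The dDAVP group was infused for 5 d with 40 ng/h of dDAVP (desmopressin), which activates the vasopressin V2 receptor of collecting duct cells. The withdrawal group received the same dDAVP infusion, after which its minipumps were removed under light enflurane inhalation and the rats were kept for a further 3 h. The labels give the body weight but neither the age of the rats nor the hour of the day at which tissue was taken, and they do not say whether the 2 arrays of a group come from separate animals, so a p-value here reflects array-to-array spread, which may be technical.

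The mammalian clock is a feedback loop of transcription. CLOCK pairs with BMAL1 (or NPAS2 with BMAL1) and binds E-box elements, which switches on the Per and Cry genes, whose proteins then block CLOCK and BMAL1. The same pair drives Nr1d1 and Nr1d2, which encode the repressors REV-ERB alpha and beta; these bind ROR elements and repress Bmal1, Cry1, Npas2 and Nfil3. Dbp and its relative Tef bind D-box elements and are opposed there by the repressor NFIL3. In rodent peripheral tissues Dbp, Nr1d1, Nr1d2, Per3 and Tef are known to be high in one part of the day, and Bmal1, Nfil3 and Cry1 near the opposite part. Noct, also called nocturnin, is a rhythmic gene as well. In the kidney the clock is known to shape the daily course of water and sodium excretion.

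The promoter letters of these genes show which of the elements lie close to the start of transcription, and the stretches below are those of genes described in the results. RefSeq promoters (build GRCr8, from 250 bases before to 50 bases after each start) were found for 9 of the 10 genes, with 2 starts for Clock and Nr1d1 and 1 for the other 7; Cry1 had no entry. Both strands were searched for the E-box CACGTG, the E-prime box CACGTT, the D-box TTANGTAA, the ROR element core AGGTCA, the cAMP response element TGACGTCA and its first part TGACG, which overlaps it. Each line runs 5′ to 3′ on the strand of the gene, with the element in capitals and up to 22 bases on each side, stopping at the start of transcription.
Nr1d1 E-box (chr10:84229618-84229667, minus strand): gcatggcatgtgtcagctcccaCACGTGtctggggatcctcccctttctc
Nr1d1 E-prime box (chr10:84231959-84232008, minus strand): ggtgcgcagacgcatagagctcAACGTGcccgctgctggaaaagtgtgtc
Tef E-box (chr7:115206607-115206656, plus strand): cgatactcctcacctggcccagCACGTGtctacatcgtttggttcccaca
Per2 E-prime box (chr9:99497028-99497077, minus strand): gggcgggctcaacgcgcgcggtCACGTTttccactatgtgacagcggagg
Per2 D-box (chr9:99497156-99497207, minus strand): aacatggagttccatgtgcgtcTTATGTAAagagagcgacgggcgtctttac
Cry2 E-prime box (chr3:98860622-98860671, minus strand): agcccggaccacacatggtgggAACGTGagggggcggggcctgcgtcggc
Nr1d2 ROR element core (chr15:9954825-9954874, plus strand): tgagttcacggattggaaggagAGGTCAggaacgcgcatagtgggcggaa
Bmal1 ROR element core (chr1:176766291-176766327, plus strand): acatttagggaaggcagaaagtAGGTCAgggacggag
The E-box of Nr1d1 lay 191 bases before one of its starts and the E-prime box 174 bases before the other. The E-prime boxes of Cry2 and Per2 began 212 and 62 bases before the start, the Cry2 and Nr1d1 ones on the opposite strand. A gene was counted here if any of its starts held the element, whereas the shares of all promoters count each promoter by itself. Of the 9 genes 1 held CACGTG, against 6.42% of 33469 promoters, and 3 held CACGTT, against 4.83%. The D-box was found in 1 (Per2, 2.24% of all promoters), AGGTCA in 1 (Nr1d2, 16.2%), TGACG in 3 (Per2, Per3 and Nr1d2, 21.2%) and the full TGACGTCA in 0 (1.83%). In the 250 bases before the start alone, TGACG was found in 1 gene (Per3), against 18.2% of all promoters. Among the partners of the clock genes Tef, Bhlhe40 and Bhlhe41 held CACGTG, 198, 220 and 48 bases before the start, Bmal1 held AGGTCA 15 bases before it, and Nfil3 held TGACG. These matches are a description of letters in a short window.

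The arrays differed in ways that touch every value below. Median intensities ran from 156 to 182, lowest in the 2 dDAVP arrays, and over all genes the median difference (log2) came to 0.14 for withdrawal against dDAVP, -0.11 for dDAVP against vehicle and 0.03 for withdrawal against vehicle. Differences are given as deposited, and for many of them the value after a cyclic loess normalization, which removes such shifts, is added. Vehicle replicate 1 and dDAVP replicate 2 stood apart from the other 4 arrays. The imprinted gene Mest was at 5.47 and 5.66 (log2) in these 2 arrays and at 9.97 or more in the rest, and Spink13 at 9.11 and 8.93 against at most 6.83; both genes were picked after their values were seen. The 6 markers of the inner medullary collecting duct averaged 11.69 to 11.92 over the arrays (log2), from Scnn1g at 9.38 to Aqp2 at 13.24. Proximal tubule markers averaged 7.32 to 7.73, those of the thick ascending limb 9.58 to 10.47, of intercalated cells 7.99 to 9.27 and of leukocytes 8.57 to 8.97. No detection calls were used here, so signal over background cannot be given.

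In several clock genes arrays of the same group differed by more than the group means did. Dbp, which drives rhythmic output genes through D-boxes, was at 11.35 and 10.74 (log2 intensity) in vehicle replicates 1 and 2, at 10.61 and 11.41 in dDAVP replicates 1 and 2, and at 10.64 and 10.52 after withdrawal. Its high arrays were vehicle replicate 1 and dDAVP replicate 2, which lay 0.60 above the nearest of the other 4. Nr1d1, the REV-ERB alpha gene, was at 10.53 and 10.01 in vehicle, 10.10 and 10.53 in dDAVP and 9.98 and 9.72 after withdrawal. The same 2 arrays were the highest, by 0.43. Per3, a period gene, was highest in them as well, but only by 0.01: it was at 8.60 and 8.27 in vehicle, 8.09 and 8.56 in dDAVP and 8.34 and 8.55 after withdrawal. Nr1d2 did not follow, since dDAVP replicate 1, at 9.49, lay above vehicle replicate 1, at 9.46.

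Cry1, a repressor of CLOCK and BMAL1, showed the opposite order. It was at 7.45 and 7.90 in vehicle, 8.07 and 7.27 in dDAVP and 7.96 and 7.90 after withdrawal, so that vehicle replicate 1 and dDAVP replicate 2 were the lowest arrays, 0.44 below the nearest other. Noct, the deadenylase gene, was likewise lowest in these 2 arrays, by 0.49. It was at 8.03 and 8.85 in vehicle, 8.69 and 8.20 in dDAVP, and 9.06 and 9.41 after withdrawal. In all, 5 of the 10 clock genes had both arrays outside the other 4, against 23.6% of all genes, and 4 of the 10 (Dbp, Noct, Cry1 and Nr1d1) by at least 0.4 log2, against 2.14% of all genes. The limit of 0.4 was set after the values were seen, and the pair of arrays was known from earlier results of these data. After cyclic loess the counts were again 5 and 4, against 30.1% and 2.13% of all genes. With array medians subtracted they were 5 and 3, against 24.8% and 1.88%.

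**Figure D1:**
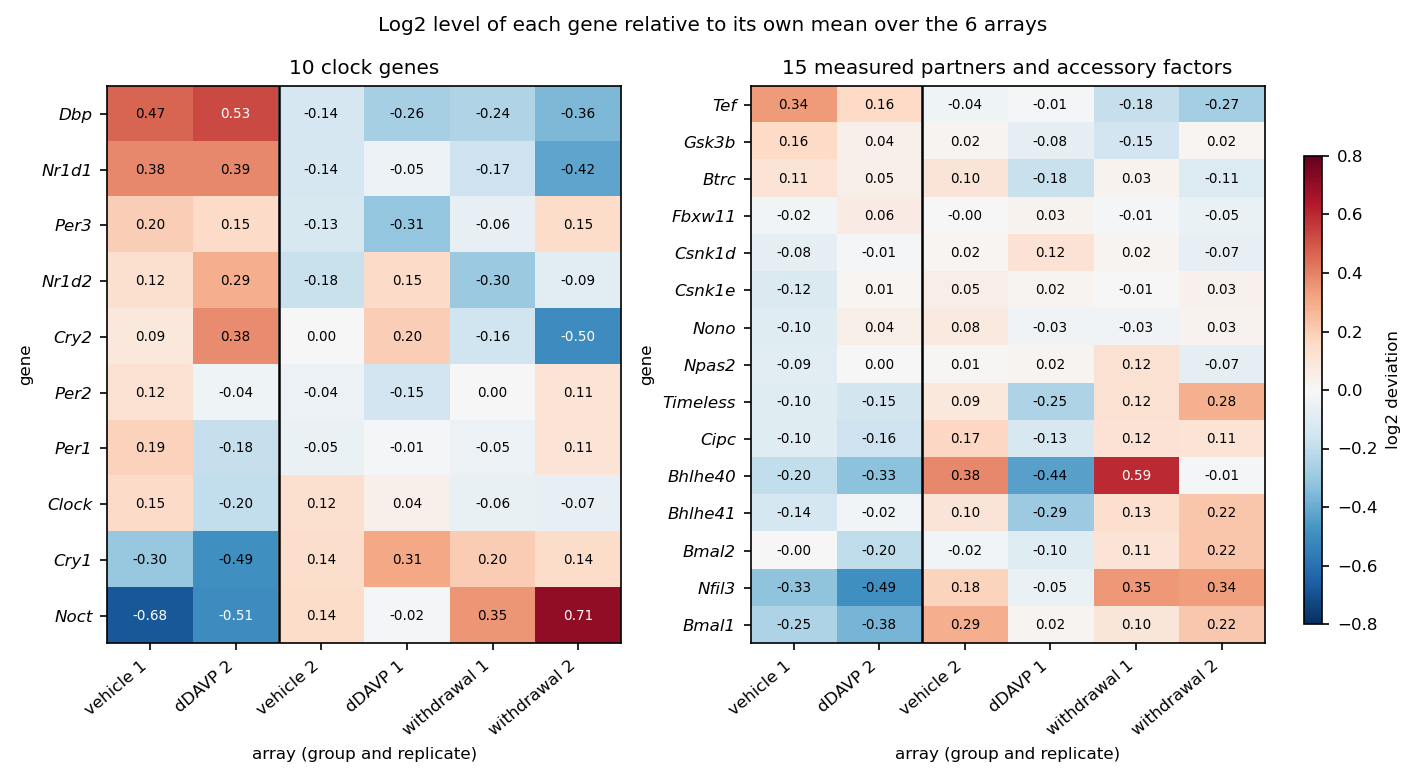
Log2 level of each gene relative to its own mean over the 6 arrays, for the 10 clock genes (left) and 15 measured partners and accessory factors (right); each column is 1 array, the line sets off vehicle replicate 1 and dDAVP replicate 2, and red is above and blue below the mean of the gene. In these 2 arrays Dbp, Nr1d1, Tef and, by only 0.01, Per3 were at their highest and Cry1, Noct, Bmal1 and Nfil3 at their lowest. Nr1d2 and Npas2 did not follow this order.

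Of the partners of the clock genes a few had these 2 arrays outside the others. Bmal1, the partner of CLOCK, was at 8.50 and 9.03 in vehicle, 8.77 and 8.37 in dDAVP and 8.84 and 8.96 after withdrawal, lowest in the same 2 arrays by 0.27. Nfil3, which opposes Dbp at D-boxes, was at 7.57 and 8.08, 7.84 and 7.41, and 8.24 and 8.23, also lowest there by 0.27. Tef, a relative of Dbp, was at 8.90 and 8.52, 8.54 and 8.71, and 8.37 and 8.29, highest there by 0.17. Npas2, named above with Bmal1 and Nfil3 among the genes that the REV-ERB proteins repress, did not follow. Its 6 arrays spanned only 0.21. Over the list of 15 measured partners and accessory factors, 4 (Bmal1, Nfil3, Tef and Gsk3b) had both arrays outside the other 4, or 26.7%, which is near the 23.6% of all genes, and 0 of the 15 by 0.4 or more. After cyclic loess the count was 7 of 15, against 30.1% of all genes, and 1 of the 15 by 0.4 or more. Among 19 measured genes known as rhythmic outputs the count as deposited was 7, or 36.8%, against 23.6% of all genes. After cyclic loess it was 6, or 31.6%, which is near the 30.1% of all genes. The 7 include the ubiquitin protease Usp2, which was at 7.50 and 7.46 in these 2 arrays and at 8.09 or more in the other 4.

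Other genes moved with the same 2 arrays. Of the 11 measured early genes inducible by cAMP, 8 were lowest in them, against 12.7% of all genes, for example Junb (8.67 and 8.52, against at least 9.25) and Atf3 (8.12 and 8.01, against at least 8.88), and of 12 measured genes inducible by glucocorticoids 7 lay outside the other arrays, 3 above and 4 below, against 23.6% of all genes. By at least 0.4 log2 both arrays lay outside in 3 of the 11 cAMP genes, 2 of the 12 glucocorticoid genes and 3 of the 19 output genes. The share of all genes was 2.14%, so a wide gap was not particular to the clock genes. After cyclic loess the counts were 2, 1 and 3, against 2.13% of all genes. The averages of 4 of the 11 marker lists also had both arrays above the other 4, by at most 0.06 (podocytes, endothelium, proximal tubule and adipocytes). Single markers within lists lay further outside, in both directions, which the averages do not show. The leukocyte marker Cd68 was lowest in these 2 arrays by 0.79, and Slc14a2 of the collecting duct by 0.44. The leukocyte marker Cd74 was highest in them by 0.47. The part of these in the clock gene values was not tested. In whole tissue, fewer cells of a type and less RNA per cell cannot be told apart.

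**Figure D2:**
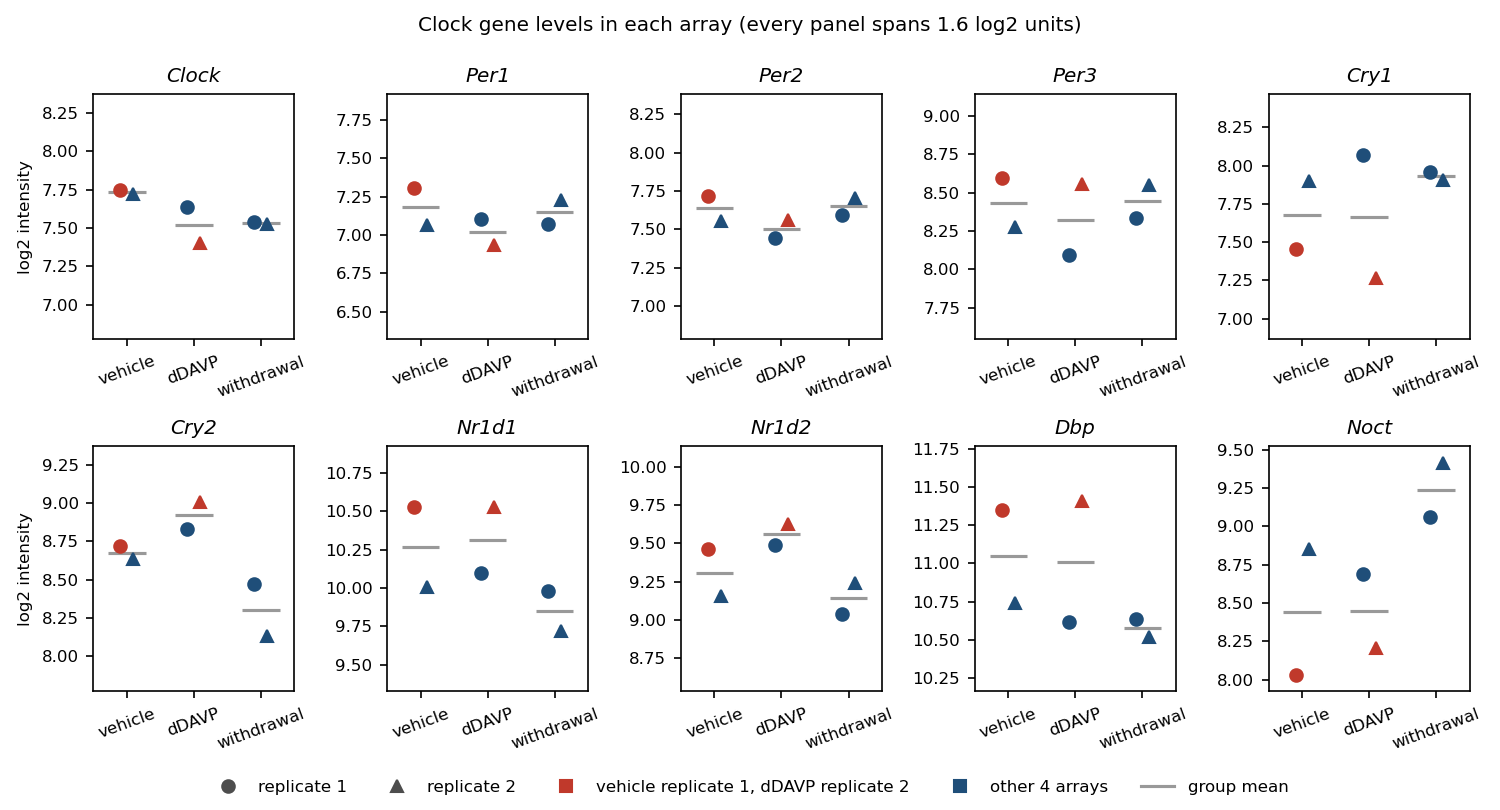
Log2 intensity of the 10 clock genes in each array, by group; circles are replicate 1, triangles replicate 2, red marks vehicle replicate 1 and dDAVP replicate 2, and grey lines are means of 2 arrays. The red points of Dbp and Nr1d1 lie above and those of Cry1 and Noct below all blue points, whereas Cry2 separates the withdrawal arrays from the rest.

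The first comparison, withdrawal against dDAVP, sets tissue taken 3 h after pump removal beside tissue under infusion. None of the 10 clock genes passed an adjusted p of 0.05 in limma (smallest adjusted p = 0.26, shared by Cry2, Nr1d2 and Noct), and 0% of all 14168 genes did (2686 had an unadjusted p under 0.05). Cry2, the second cryptochrome, was at 8.83 and 9.01 in dDAVP and at 8.47 and 8.13 after withdrawal, and at 8.72 and 8.63 in vehicle. Both withdrawal arrays lay below the other 4, and both dDAVP arrays above them. The mean went from 8.92 ± 0.13 to 8.30 ± 0.24 (SD, n = 2), a difference of -0.62 ± 0.14 (SE) or 1.53-fold, with a 95% confidence interval from -0.96 to -0.27 and an adjusted p = 0.26 (limma, unadjusted 0.00437). Nr1d2, the REV-ERB beta gene, was at 9.49 and 9.63 in dDAVP, 9.04 and 9.24 after withdrawal and 9.46 and 9.15 in vehicle. The withdrawal arrays did not overlap the dDAVP arrays but overlapped the vehicle ones, and the difference from dDAVP was -0.42 ± 0.14 (interval -0.76 to -0.08).

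Noct was the clock gene with the largest difference after withdrawal. Both withdrawal arrays were above the other 4, at a mean of 9.24 ± 0.25, against 8.45 ± 0.34 in dDAVP (SD, n = 2), which is 0.79 ± 0.30 (SE) or 1.73-fold higher (interval 0.06 to 1.52). After cyclic loess the Noct difference was 0.72 and its unadjusted limma p, 0.0685, was no longer under 0.05. Cry2 and Nr1d2 were then at -0.69 and -0.46, with unadjusted limma p of 0.00367 and 0.0215. Nr1d1 differed from dDAVP by -0.46 ± 0.22 without overlap of the arrays, and Dbp by -0.43 ± 0.30 with dDAVP replicate 1, at 10.61, between the withdrawal arrays. Cry1 differed by 0.27 ± 0.27. The period genes and Clock lay close to 0: 0.13 ± 0.13 for Per1, 0.15 ± 0.11 for Per2, 0.12 ± 0.19 for Per3 and 0.01 ± 0.11 for Clock. The upper ends of their intervals were 0.44, 0.41, 0.58 and 0.28, and differences up to these sizes are within the intervals. After cyclic loess Per1, Per2 and Clock were at -0.08, -0.02 and -0.15, Per3 at 0.03 and Cry1 at 0.11.

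As deposited, 10616 of all genes were above 0 and 3552 below in this comparison; after cyclic loess 7265 were above and 6903 below, so the shares of all genes that follow hold for the deposited scale. At an unadjusted p under 0.05, 2 clock genes were lower (Cry2 and Nr1d2), against 1.64% of all genes, and 1 was higher (Noct), against 17.3%. The arrays did not overlap in 3 lower genes (Cry2, Nr1d1 and Nr1d2), against 8.06% of all genes, and in 2 higher ones (Per2 and Noct), against 49.6%. The median difference of the 10 genes was 0.07, against 0.14 for all genes, and -0.12 after loess, against 0.00. The end of the infusion, the removal of the pump under anaesthesia and the added 3 h cannot be told apart in this design.

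**Figure D3:**
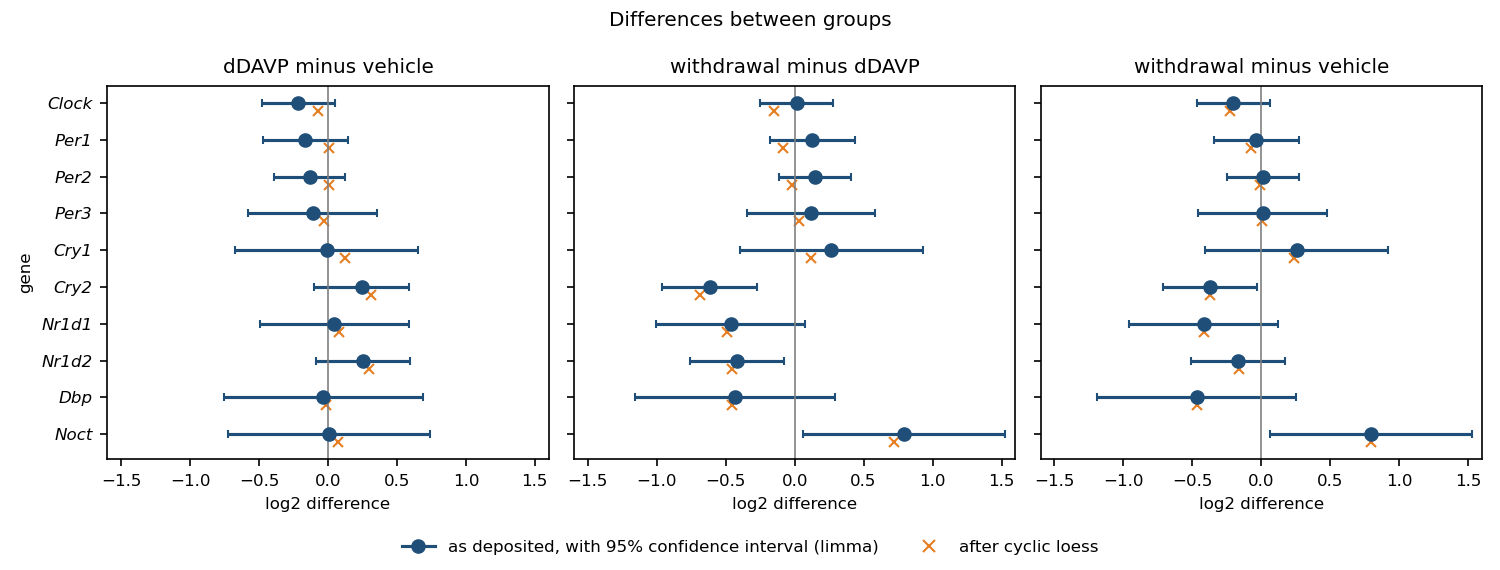
Log2 differences of the 10 clock genes in the 3 comparisons; circles are the values as deposited with their 95% confidence intervals from limma, and crosses the values after cyclic loess. As deposited, the intervals of Cry2, Nr1d2 and Noct in withdrawal minus dDAVP, and of Cry2 and Noct in withdrawal minus vehicle, do not hold 0, but no gene passed after adjustment over all genes. After loess the unadjusted limma p of Noct was above 0.05 in both.

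Withdrawal against vehicle set the same withdrawal arrays against rats that never received dDAVP. Again none of the clock genes and 0% of all genes passed in limma (smallest adjusted p over all genes 0.995, with 253 genes at an unadjusted p under 0.05). Cry2 was lower by -0.37 ± 0.14 (interval -0.72 to -0.03), and Noct higher by 0.80 ± 0.30 (interval 0.06 to 1.53), the pair with an unadjusted p under 0.05. This is 1 gene lower, against 1.14% of all genes, and 1 higher, against 0.642%. Nr1d1 differed by -0.42 ± 0.22, Dbp by -0.47 ± 0.30, Clock by -0.20 ± 0.11, Nr1d2 by -0.17 ± 0.14 and Cry1 by 0.26 ± 0.27. Per1, Per2 and Per3 were at -0.03 ± 0.13, 0.01 ± 0.11 and 0.01 ± 0.19. Arrays did not overlap in 4 lower genes (Cry2, Clock, Nr1d1 and Dbp), against 13.1% of all genes, and in 2 higher ones (Cry1 and Noct), against 17.6%. Both withdrawal arrays were below all other 4 in 2 clock genes, Cry2 and Nr1d1, against 3.9% of all genes (552 of 14168). The count was 1 after loess, against 1072 of the 14168, and 4 with array medians subtracted, against 1614 of the 14168. The averages of 2 of the 11 marker lists were also above the other 4 in these arrays, smooth muscle at 8.61 and 8.63 against 8.28 to 8.48 and distal convoluted tubule at 6.55 and 6.60 against 6.31 to 6.51. As deposited, both withdrawal arrays were above the other 4 in 14.7% of all genes. The medians of these 2 lists in withdrawal against dDAVP were 0.30 and 0.25 as deposited, and 0.135 and 0.05 after loess. The part of these markers in the values was not tested.

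Leaving out the 2 arrays that stand apart shrank the Dbp and Nr1d1 differences more than the Cry2 one. Dbp and Nr1d1 were highest in these arrays, so their negative differences had to shrink. Noct was lowest in these arrays, so its positive differences had to shrink as well. Without them the difference of withdrawal from dDAVP was -0.04 for Dbp, -0.25 for Nr1d1, -0.35 for Nr1d2, 0.55 for Noct and -0.53 for Cry2, and Cry1 turned from 0.27 to -0.13. Against vehicle it was -0.17 for Dbp, -0.16 for Nr1d1, -0.01 for Nr1d2, 0.38 for Noct and -0.33 for Cry2. Each of these rests on 1 dDAVP or 1 vehicle array, which is taken to vary like the 2 withdrawal arrays. With single arrays left out, Cry2 stayed between -0.79 and -0.44 against dDAVP and between -0.54 and -0.20 against vehicle, and Noct between 0.55 and 1.03 and between 0.38 and 1.21.

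**Figure D4:**
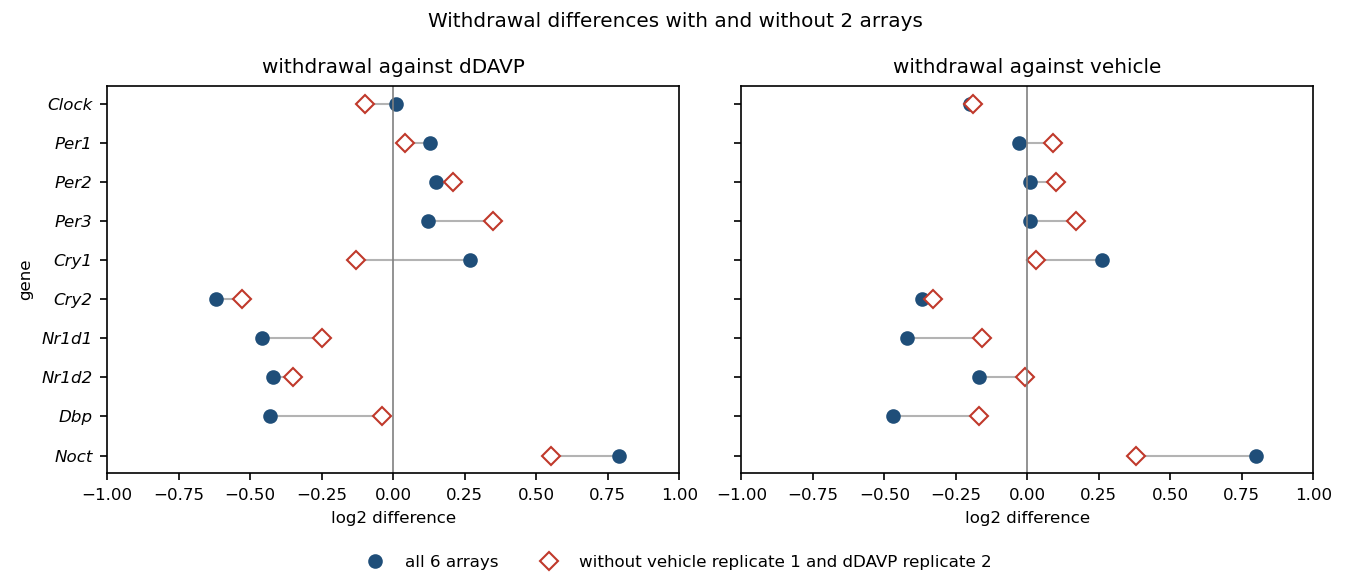
Log2 differences of the 10 clock genes in withdrawal against dDAVP (left) and against vehicle (right), with all 6 arrays (circles) and without vehicle replicate 1 and dDAVP replicate 2 (diamonds). Dbp moved from -0.43 to -0.04 against dDAVP, while Cry2 moved from -0.62 to -0.53.

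In dDAVP against vehicle, which shares its dDAVP and vehicle arrays with the comparisons above, the clock genes differed little beside their spread. The differences of the 10 genes ran from -0.22 to 0.25, and none passed in limma (smallest adjusted p over all genes 0.549), as for 0% of all genes, of which 1052 had an unadjusted p under 0.05. No clock gene reached that unadjusted level, against 0.572% of all genes higher and 6.85% lower. Cry2 was at 0.24 ± 0.14 and Nr1d2 at 0.25 ± 0.14, both without overlap of the arrays (2 higher genes, against 4.8% of all genes), and Clock, at 7.75 and 7.72 in vehicle and 7.64 and 7.40 in dDAVP, differed by -0.22 ± 0.11 without overlap (1 lower gene, against 40.6%). After loess Clock was at -0.07, with Cry2 at 0.31 and Nr1d2 at 0.29. With single arrays left out Cry2 ran from 0.15 to 0.33, Nr1d2 from 0.10 to 0.40, Clock from -0.33 to -0.10, Per1 from -0.28 to -0.04 and Per2 from -0.22 to -0.05. Per1 (7.30 and 7.06 in vehicle, 7.11 and 6.93 in dDAVP) differed by -0.16 ± 0.13 and Per2 (7.72 and 7.55, 7.44 and 7.56) by -0.13 ± 0.11, and both were at 0.01 after loess. Per1 is known to be inducible by cAMP, the messenger of the V2 receptor; its interval ran from -0.47 to 0.15.

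The genes whose group means were closest in this comparison had the widest intervals. Dbp was at -0.03 (interval -0.76 to 0.69), Cry1 at -0.01 (-0.67 to 0.65), Noct at 0.01 (-0.73 to 0.74) and Nr1d1 at 0.05 (-0.50 to 0.59), since in each group 1 array was high and 1 low. The spread between the 2 arrays of a group (pooled SD, log2) was 0.41 for Dbp, 0.42 for Noct, 0.37 for Cry1 and 0.30 for Nr1d1, wider than in 97.0%, 97.1%, 96.1% and 92.5% of all genes. It was 0.10 for both Per2 and Clock, 0.14 for Per1 and 0.16 for Cry2 and Nr1d2. Over the 10 genes its median was 0.20, against 0.12 over all genes. The F-test over the 3 groups also passed in none of the 10 genes and in 0% of all genes (limma, adjusted p = 0.489 for Cry2, Nr1d2 and Noct).

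Around the core loop, none of the 15 measured partners and accessory factors passed in any comparison. In withdrawal against dDAVP 5 of them were higher at an unadjusted p under 0.05: the DNA replication and clock factor Timeless (0.40 ± 0.11, 0.25 after loess), Bmal2 (0.32 ± 0.10, 0.12 after loess), Nfil3 (0.61 ± 0.21), and the E-box repressors Bhlhe40 (0.68 ± 0.25) and Bhlhe41 (0.33 ± 0.14, 0.16 after loess), and 0 were lower. The share of all genes that were higher in this way was 17.3%. After loess Nfil3 was at 0.48 and Bhlhe40 at 0.615, and none of the 5 had an unadjusted limma p under 0.05. These p-values were 0.0654 for Timeless and Bhlhe40, 0.0964 for Nfil3, 0.249 for Bmal2 and 0.294 for Bhlhe41. In withdrawal against vehicle Tef alone was below that level, at -0.38 ± 0.15. Bmal1 differed by 0.33 ± 0.21 from dDAVP and by 0.14 ± 0.21 from vehicle. Npas2, which can stand in for CLOCK, and the casein kinases Csnk1d and Csnk1e, which mark PER proteins for degradation, were between -0.07 and 0.08 in every comparison as deposited; after loess Npas2, Csnk1d and Csnk1e were at 0.18, 0.12 and 0.14 in dDAVP against vehicle and at -0.13, -0.11 and -0.10 in withdrawal against dDAVP. The median of the 15 was -0.14, 0.02 and 0.07 (0.00, -0.03 and 0.05 after loess) in dDAVP against vehicle, withdrawal against dDAVP and withdrawal against vehicle.

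Among the 19 measured output genes none passed. For the genes named here at an unadjusted p below 0.05, the background in dDAVP against vehicle was 0.572% of all genes on the higher side and 6.85% on the lower, and in withdrawal against dDAVP 17.3% and 1.64%. Klf10, a transcription factor with a daily rhythm, was at -0.42 ± 0.14 in dDAVP against vehicle and 0.53 ± 0.14 in withdrawal against dDAVP, which share the dDAVP arrays. Also below an unadjusted p of 0.05 in withdrawal against dDAVP were the cell cycle inhibitor Cdkn1a (1.68 ± 0.51), the V1a receptor Avpr1a (0.37 ± 0.15) and the V2 receptor Avpr2 (-0.43 ± 0.16). The unadjusted limma p after loess was 0.0621 for Avpr1a and 0.0634 for Avpr2, no longer below 0.05. For Cdkn1a it was 0.0288, and for Klf10 0.0428 in dDAVP against vehicle and 0.0166 in withdrawal against dDAVP. The median of the 19 was -0.08, 0.05 and 0.02 (-0.02, -0.01 and 0.02 after loess) in the same order of comparisons. Of the 11 measured early genes inducible by cAMP only the phosphatase gene Dusp1 was below that level, at 0.55 ± 0.19 in dDAVP against vehicle, and the medians were 0.18, 0.17 and 0.43 (0.27, 0.09 and 0.43 after loess). Of the 12 measured genes inducible by glucocorticoids, hormones that also act on Per1, the immunophilin gene Fkbp5 (-0.54 ± 0.20) and Zbtb16 (-0.28 ± 0.10, but -0.12 with an unadjusted limma p of 0.233 after loess) were lower and Dusp1 higher in dDAVP against vehicle, and Cdkn1a and the signalling inhibitor Errfi1 (0.30 ± 0.12) higher in withdrawal against dDAVP. With loess the unadjusted limma p was 0.0708 for Fkbp5 and 0.0526 for Errfi1, no longer below 0.05, and 0.0243 for Dusp1 and 0.0288 for Cdkn1a. The medians of the 12 genes were -0.06, 0.02 and 0.05 (-0.05, -0.06 and 0.05 after loess), against -0.11, 0.14 and 0.03 for all genes.

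Noct was the one clock gene whose 6 arrays spanned over 1 log2 (1.39). The genes most like it, by the root mean square difference between mean-centred log2 values over the 6 arrays, were Hbegf, a growth factor of the EGF family (0.09), the metalloreductase Steap1 (0.10) and the cytokine Csf3 (0.12). Hbegf was at 7.61 and 8.55 in vehicle, 8.38 and 7.78 in dDAVP and 8.58 and 8.85 after withdrawal, so it too was lowest in the 2 arrays that stand apart and highest after withdrawal.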

How the data were processed

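Per the submitters' processing notes the authors summarised the arrays with RMA; the software version and genome build were not given. The table the authors deposited holds linear intensities (30.2 to 10778.7), and their log2 was analysed. Of 28524 probe sets 14947 carried 1 gene symbol, 318 several, and 13259 were unnamed here; the brightest probe set on average stood for each of 14168 genes, without a filter. Entrez numbers of 14916 probe sets were found in the RefSeq table of GRCr8. The test was that of limma 3.58.1 (R 4.3.3), fitted over all 6 arrays (1 mean per group, 3 residual and 3.21 prior degrees of freedom, two-sided, Benjamini-Hochberg adjusted p under 0.05 over all genes); the method was tested on simulated data. The 2 arrays per group limit the precision.

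The clock genes and the other lists were chosen with earlier results of these data known. Named were all 10 clock genes, fixed partners (Bmal1, Npas2, Nfil3, Bhlhe40, Csnk1d, Csnk1e), list members that passed or, with none passing, had an unadjusted p under 0.05 (at most 6 a list), and the 3 genes most like a clock gene spanning at least 1 log2, leaving out microRNAs, unnamed loci and olfactory or vomeronasal receptors. Usp2, Junb, Atf3, Gsk3b, Mest, Spink13, Cd68, Cd74 and Slc14a2 were named after their values were seen. Some members of the lists are not reported here. Slides and scan times were not analysed here, so no batch term was fitted.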

Additional observations from a re-analysis of the deposited data

How the results depend on the processing

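The 30 differences of the clock genes (10 genes, 3 comparisons) kept their sign and stayed above an adjusted p of 0.05 in limma in 378 of 420 alternative values. They all did so without the dimmest 20% of genes, with the mean of all probe sets, with a trended robust prior and with only the 2 groups compared. The sign turned in the other 42, in genes within 0.27 of 0. It could not turn in the settings just named or with the replicate as a block, which leave the difference itself unchanged. Leaving 1 array out also leaves the comparison of the other 2 groups unchanged. The share of 378 in 420 therefore overstates how steady the signs are. After cyclic loess dDAVP against vehicle gave 0.12 for Cry1, 0.01 for Per1 and 0.01 for Per2, withdrawal against dDAVP gave -0.08, -0.02 and -0.15 for Per1, Per2 and Clock, and withdrawal against vehicle gave -0.01 for Per2. With array medians subtracted the first gave 0.14, 0.02, 0.04 and 0.12 for Cry1, Per2, Per3 and Dbp, the second -0.05, -0.03, -0.06 and -0.16 for Per1, Per2, Per3 and Clock, and the third -0.01 and -0.02 for Per2 and Per3. Without vehicle replicate 1 and dDAVP replicate 2 together, the first gave 0.17, 0.04 and -0.16 for Cry1, Per1 and Noct, the second -0.13 and -0.10 for Cry1 and Clock, and the third 0.09 for Per1. The cause was not tested.

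With 1 array left out, dDAVP against vehicle ran from -0.41 to 0.39 for Cry1, -0.43 to 0.36 for Dbp, -0.41 to 0.42 for Noct, -0.21 to 0.31 for Nr1d1 and -0.34 to 0.12 for Per3. Withdrawal against dDAVP ran from -0.13 to 0.67 for Cry1, -0.10 to 0.13 for Clock and -0.11 to 0.35 for Per3, and withdrawal against vehicle from -0.15 to 0.09 for Per1, -0.07 to 0.10 for Per2 and -0.15 to 0.17 for Per3. The number of genes passing was 0 in every comparison and alternative, except 0 to 2 with 1 array left out in dDAVP against vehicle, in withdrawal against dDAVP and in the F-test, where the 2 came without dDAVP replicate 1.

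Arrays with the same replicate number in the labels did not deviate together (correlations over genes of -0.62, -0.002 and -0.11), so the numbers were not taken to pair the samples. With the replicate block 0 genes passed in each comparison. No clock gene turned, since the block leaves the differences unchanged in this balanced design. At an unadjusted p under 0.05 (limma) there were 490, 1518 and 128 genes, against 1052, 2686 and 253 without it. Added after the data were seen, the counts of clock genes with the withdrawal arrays below all others were 1 after loess and 4 with medians subtracted, against 2. Over all 14168 genes the counts were 1072 and 1614, against 552. The count of clock genes with an E-box or E-prime box was 3 in either window. Signal over background, which limits dim genes, is unknown here.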
